A study of Homo sapiens with 2 samples.

Results

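Matrix metalloproteinases (MMPs), ADAMs, ADAMTS enzymes and their inhibitors, the TIMPs, were examined in PLC-8024 cells, a human hepatocellular carcinoma (HCC) cell line, with and without overexpression of GDF1, a ligand of the TGF-β superfamily. Genes were taken by symbol (MMP, ADAM or ADAMTS followed by a number, and TIMP1 to TIMP4), which gave 67 of the 58174 genes listed. Of these 67 genes, 20 reached at least 1 TPM in either library and are described one by one, against 14929 genes at that level in the whole data set. TPM is a transcript level scaled by gene length and library total, so that genes can be compared with each other within a library.

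The data comprised 1 RNA-seq library of PLC-8024-CTR cells (genotype Control, carrying a control vector, hereafter CTR cells) and 1 of PLC-8024-GDF1 cells (genotype GDF1-overexpression, hereafter GDF1 cells). Per the study's methods, human GDF1 was delivered by lentivirus and puromycin was used to keep stably transduced cells. The sources used here do not say whether the cells were a pool or 1 clone. The promoter that drives the introduced gene is not given in the sources used here. The comparison asks how the protease and inhibitor genes differed after GDF1 was introduced, in a study that measured migration, invasion and metastasis of these cells. Since each condition had 1 library, there was no replicate spread to test against, no p-value is given, and every statement describes these 2 libraries. Depth cannot be read from TPM, and no counting error is given.

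Metalloproteinases of these families share a zinc-dependent active site and are made as inactive precursors, many of which are cut by furin-like convertases. MMPs cleave matrix proteins, either as secreted enzymes or anchored to the membrane. ADAMs are membrane proteins, several of which shed growth factors, cytokines and adhesion molecules from the cell surface, while others have lost the catalytic site and act in adhesion. ADAMTS enzymes are secreted and act on proteoglycans, procollagens and plasma proteins, and TIMPs bind and block the active enzymes. In the liver this system is best known for matrix turnover in fibrosis and for invasion of HCC.

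GDF1 was listed at 2.10 TPM in CTR cells and 4.64 TPM in GDF1 cells, and CERS1, whose exons overlap it, at 13.3 and 9612 TPM. The label of a liver cell line was checked by marker lists. All 8 hepatocyte markers reached 1 TPM, with a sum of 8072 TPM in CTR cells and 4680 TPM in GDF1 cells, and 5 of them were over 2-fold lower in GDF1 cells. After rescaling for the shift of the median gene, 2 of the 8 were over 2-fold lower. Of all 14929 genes with at least 1 TPM, 9.61% were over 2-fold lower, and 6.52% after rescaling. Whether the lower hepatocyte markers bear on the protease values was not tested. The epithelial keratins KRT8 (1424 and 1777 TPM) and KRT18 (1005 and 1224 TPM) were abundant and somewhat higher in GDF1 cells, while of the other epithelial markers CDH1 fell (10.4 and 0.329 TPM) and EPCAM was under 1 TPM in both libraries. Of 6 fibroblast markers 1 reached 1 TPM (COL3A1, 3.22 and 1.23 TPM), and COL1A2, DCN and ACTA2 were listed at 0.0001 TPM, the value that stands for 0. The leukocyte marker PTPRC and the endothelial marker VWF were also at 0.0001 TPM in both libraries, while CD68 (33.1 and 13.2 TPM), LYZ (298.0 and 213.5 TPM) and PECAM1 (23.2 and 22.2 TPM) were present. In a bulk culture, fewer cells with a transcript and less of it per cell cannot be told apart.

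Differences were expressed as log2((TPM + 1)/(TPM + 1)), the value in GDF1 cells divided by that in CTR cells, called the log2 change. A gene is said to have risen or fallen where this value passed 1 or -1, a 2-fold difference. The pseudocount of 1 makes the changes of low genes smaller, and plain TPM ratios are named as such. Among the 20 genes, 2 rose (ADAM23 and MMP15), 2 fell (TIMP3 and ADAM9) and 16 stayed within 2-fold. ADAM23 reached 1 TPM in GDF1 cells only, and TIMP3 and ADAM9 in CTR cells only. Each thus entered the 20 through the library where it is higher, under the same limit as all genes. Over all 14929 genes with at least 1 TPM, 4.82% rose and 9.61% fell, so the count that fell among the 20 was near the background and 2 genes are too few to set the other count apart from it. Across the 20 genes the median was 0.23 on the log2 scale, against -0.20 across all genes. Relative to that general shift, with the TPM of GDF1 cells multiplied by 1.18 so that the median of all genes was 0, the same 4 genes passed 2-fold, while 7.38% of all genes rose and 6.52% fell. On the deposited scale 12 of the 20 genes were higher in GDF1 cells and 8 lower, and after rescaling 14 were higher and 6 lower. Of all 14929 genes 5486 were higher on the deposited scale and 9443 lower, and 7465 were higher after rescaling.

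**Figure D1:**
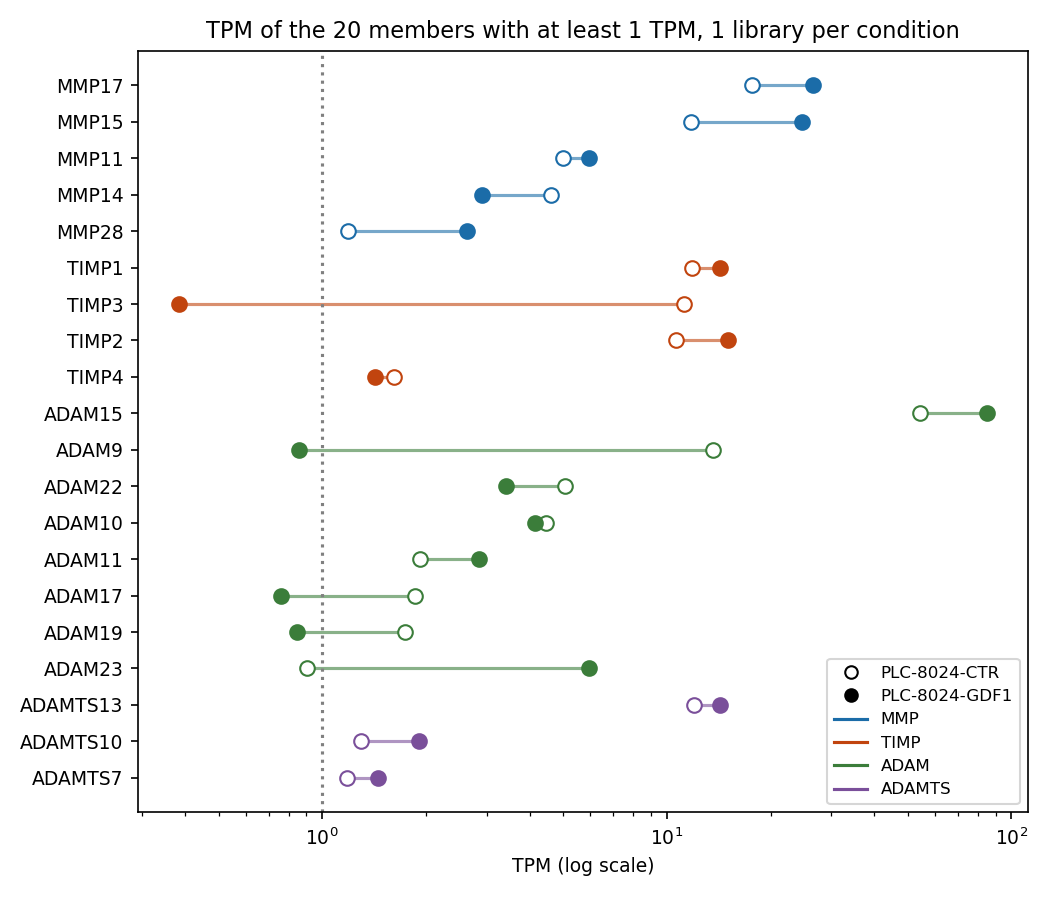
TPM on a log axis for the 20 genes that reached 1 TPM in either library, 1 row per gene and coloured by family, with an open point for CTR cells and a filled point for GDF1 cells. TIMP3 and ADAM9 cross from above 10 TPM to below 1 TPM (dotted line), ADAM23 crosses from 0.905 to 5.94 TPM, and ADAM15 is the highest gene in both libraries.

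The inhibitors were examined first, because all 4 TIMPs reached 1 TPM. TIMP3 (ENSG00000100234, plus strand of chromosome 22 of GRCh37, 33197691 to 33259028) binds to the extracellular matrix and differs from the other TIMPs in that it also blocks ADAM17 and several ADAMTS enzymes. It was listed at 11.2 TPM in CTR cells and 0.383 TPM in GDF1 cells, a log2 change of -3.14 and a plain ratio 29.2 times lower. Its change lay at percentile 0.214 of all genes with at least 1 TPM, the lowest place among the 20. In CTR cells TIMP1, TIMP2 and TIMP3 had similar levels, and in GDF1 cells TIMP3 alone had dropped out of that group.

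TIMP1, a secreted inhibitor that also stimulates growth, was listed at 11.8 TPM in CTR cells and 14.3 TPM in GDF1 cells (log2 change 0.26). TIMP2, which takes part in the activation of pro-MMP2 by MMP14 as well as in inhibition, was listed at 10.6 and 15.1 TPM (log2 change 0.47). TIMP4, the least abundant inhibitor, was listed at 1.62 and 1.42 TPM (log2 change -0.11). None of these 3 passed 2-fold, and the sign of TIMP4 turned after rescaling (0.03). Added up, the 4 TIMPs had 35.2 TPM in CTR cells and 31.2 TPM in GDF1 cells. TIMP3 gave 31.7% of the sum in the first and 1.23% in the second, and without it the sum was 24.1 and 30.8 TPM. The total inhibitor transcript thus combined a lower TIMP3 with higher values of TIMP1 and TIMP2, and its small decrease turned to a log2 ratio of 0.06 after rescaling.

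Of the 22 MMP genes, 5 reached 1 TPM, and 3 of them belonged to the membrane-type group. MMP17 (membrane-type 4, held in the membrane by a lipid anchor) was the most abundant, at 17.7 TPM in CTR cells and 26.6 TPM in GDF1 cells, a log2 change of 0.56. MMP15 (membrane-type 2, ENSG00000102996, plus strand of chromosome 16 of GRCh37, 58059658 to 58080805) was listed at 11.7 and 24.7 TPM, a log2 change of 1.01 that passed 2-fold by a narrow margin. It fell short of 2-fold once the trend with GC content was removed (0.82). MMP14 (membrane-type 1), the main activator of pro-MMP2 at the cell surface, was lower in GDF1 cells, at 4.62 and 2.92 TPM (log2 change -0.52). The ratio of MMP15 to MMP14 was 2.54 in CTR cells and 8.48 in GDF1 cells, so the membrane-type transcripts were made up differently in the 2 libraries. MMP16, MMP24 and MMP25, the other membrane-type genes, stayed under 1 TPM.

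The other 2 expressed MMPs were secreted enzymes that carry a furin cleavage site. MMP11 (stromelysin-3) was listed at 4.99 and 5.94 TPM (log2 change 0.21), and MMP28 (epilysin) at 1.19 and 2.64 TPM (log2 change 0.73). MMP28 passed 2-fold by the plain ratio (2.22), which the pseudocount lowers because of its low level. The 5 MMPs added up to 40.2 TPM in CTR cells and 62.8 TPM in GDF1 cells, a log2 ratio of 0.64. The ratio of summed TIMP to summed MMP transcript was 0.877 in CTR cells and 0.496 in GDF1 cells, 1.77 times lower. Without TIMP3 it was 0.599 and 0.490.

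**Figure D2:**
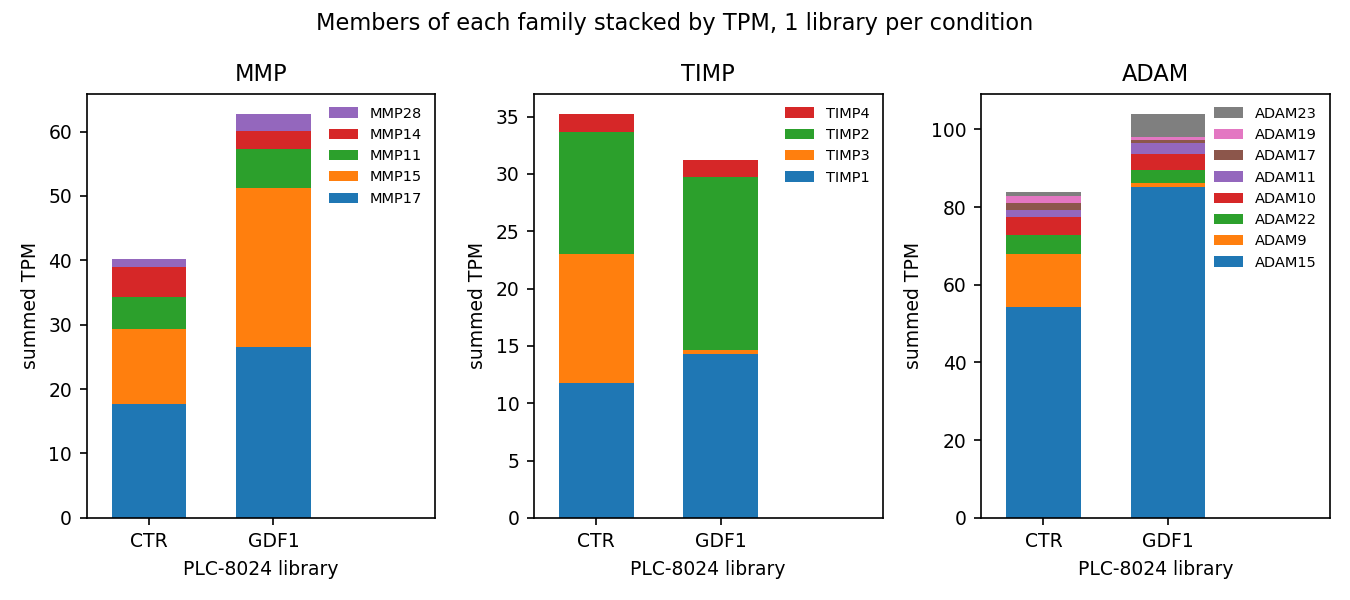
Stacked bars of TPM for the MMP, TIMP and ADAM genes that reached 1 TPM, 1 bar per library, each colour a gene and each axis starting at 0. The MMP sum is 40.2 TPM in CTR cells and 62.8 TPM in GDF1 cells, the TIMP sum is 35.2 and 31.2 TPM with TIMP3 nearly absent from the second, and ADAM15 makes up 64.7% and 81.9% of the ADAM sum.

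The gelatinases and collagenases, which are among the MMPs known from invasive tumours, were all under 1 TPM in both libraries. The gelatinases MMP2 and MMP9, which digest basement membrane collagen, were both listed at 0.0001 TPM in CTR cells and at 0.0692 and 0.438 TPM in GDF1 cells. The collagenase MMP1 was listed at 0.0971 and 0.0289 TPM, and the collagenases MMP8 and MMP13 at 0.0001 TPM in both libraries. On chromosome 11, 9 MMP genes (MMP7, MMP20, MMP27, MMP8, MMP10, MMP1, MMP3, MMP12 and MMP13) lie on the minus strand within 435 kb of GRCh37, from 102391239 to 102826461. All 9 were under 1 TPM in both libraries, 7 were at 0.0001 TPM in both, and the highest value was that of MMP7 in GDF1 cells (0.317 TPM). At such levels no fold is given. Closest to the limit of 1 TPM from below were MMP25 (0.398 and 0.930 TPM) and MMP19 (0.735 and 0.199 TPM), and from above ADAMTS7 (1.18 and 1.45 TPM).

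The promoters of the expressed and the silent genes were then compared in base composition. RefSeq start sites of GRCh38.p14 gave the 250 bases before the start for 38 of the 67 genes, 15 of them among the 20 expressed genes. The median GC content of these windows was 73.2% in the 15 expressed genes, 45.8% in the 16 genes at 0.0001 TPM in both libraries and 58.0% in all 35116 promoters of the table. The 16 silent genes ranged from 32.8% to 75.2%, and ADAMTS3 (75.2%) and ADAM12 (73.6%) among them were as GC-rich as expressed genes. In all 23 genes under 1 TPM the median was 60.0%. The GC box (GGGCGG, searched on both strands) was found in 14 of the 15 expressed genes and in 6 of the 16 silent ones, against 42.6% of all promoters. Among the 23 genes under 1 TPM it was found in 11. The promoters of the table were not split by expression. Whether the expressed members differ from other expressed genes in GC content or motifs was therefore not tested. The TATA motif (TATAAA, both strands) was found in 1 of the 15 and 5 of the 16, against 10.7% of all. The AP-1 motif of many MMP promoters (TGAGTCA or TGACTCA, both strands) was found in MMP7 among the 38, against 4.20% of all. No window was at hand for MMP1, MMP3, MMP9, MMP12 or MMP13, so these promoters were not searched for it. The SMAD-binding letters CAGACA (both strands) were found in 4 of the 38, against 13.6% of all. The searched motifs do not contain one another.

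MMP8 and MMP10, GC-poor genes of the silent cluster, do not stand for all silent genes. Their windows are shown with those of TIMP3, MMP15 and ADAM23, 3 of the 4 genes past 2-fold, with GC boxes and TATA motifs in capitals. They lie on GRCh38.p14 at chr22:32801455-32801704 (TIMP3, plus strand), chr16:58025504-58025753 (MMP15, plus strand), chr2:206443282-206443531 (ADAM23, plus strand), chr11:102724955-102725204 (MMP8, minus strand) and chr11:102780629-102780878 (MMP10, minus strand).
TIMP3: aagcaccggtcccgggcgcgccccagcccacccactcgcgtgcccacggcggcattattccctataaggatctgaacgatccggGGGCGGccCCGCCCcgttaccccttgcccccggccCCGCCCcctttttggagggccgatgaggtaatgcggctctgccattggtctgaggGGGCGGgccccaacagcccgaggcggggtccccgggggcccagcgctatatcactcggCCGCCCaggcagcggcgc
MMP15: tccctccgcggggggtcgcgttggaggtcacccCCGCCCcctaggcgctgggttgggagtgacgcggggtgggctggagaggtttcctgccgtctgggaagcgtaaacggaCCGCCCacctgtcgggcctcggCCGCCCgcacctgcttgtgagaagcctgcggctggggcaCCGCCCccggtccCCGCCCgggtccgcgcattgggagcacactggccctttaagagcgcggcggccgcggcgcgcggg
ADAM23: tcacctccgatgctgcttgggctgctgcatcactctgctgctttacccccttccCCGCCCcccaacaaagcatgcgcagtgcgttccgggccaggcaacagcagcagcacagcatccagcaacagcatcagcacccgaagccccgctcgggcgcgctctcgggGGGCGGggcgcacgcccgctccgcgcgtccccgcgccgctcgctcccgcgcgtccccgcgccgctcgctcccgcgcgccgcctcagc
MMP8: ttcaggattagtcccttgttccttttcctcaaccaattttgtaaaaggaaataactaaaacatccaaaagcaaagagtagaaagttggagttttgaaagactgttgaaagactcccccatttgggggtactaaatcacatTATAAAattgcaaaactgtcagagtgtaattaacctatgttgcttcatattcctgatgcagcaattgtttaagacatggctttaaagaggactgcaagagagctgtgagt
MMP10: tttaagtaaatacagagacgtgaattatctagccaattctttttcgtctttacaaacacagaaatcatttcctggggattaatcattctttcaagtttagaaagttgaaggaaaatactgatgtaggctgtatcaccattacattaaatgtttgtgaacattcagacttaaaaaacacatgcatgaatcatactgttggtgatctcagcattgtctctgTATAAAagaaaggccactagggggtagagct
TIMP3, which fell, and MMP15, which rose, each held 5 GC boxes and had a GC content of 72.4% and 74.8%. ADAM23 held 2 GC boxes at 73.6%, so the windows of TIMP3 and of both genes that rose were alike in GC content. MMP10 held no GC box and a TATA motif at position -31 from the start, at a GC content of 34.4%, and MMP8 held one at position -110, at 36.4%. A match of letters is a description and not a binding site.

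Of the 22 ADAM genes, 8 reached 1 TPM, and 1 rose and 1 fell. Over all genes 4.82% rose and 9.61% fell, and 1 gene of 8 is too few to set apart from these shares. ADAM9 (ENSG00000168615), a sheddase and integrin-binding protein of many epithelial tumours, was listed at 13.6 TPM in CTR cells and 0.853 TPM in GDF1 cells. Its log2 change was -2.98 and its plain ratio 16.0 times lower, at percentile 0.261 of all genes. It was the second most abundant ADAM in CTR cells, and in GDF1 cells it stood below ADAM10, ADAM11, ADAM22 and ADAM23. ADAM9 lies on the plus strand of chromosome 8 of GRCh37 from 38854273 to 38962964. It heads a run of 5 ADAM genes taken by the symbol rule, which spans 841 kb and also holds the pseudogene ADAM3A. The other 4 (ADAM32, ADAM5, ADAM18 and ADAM2) are known from testis or, for ADAM5, as a pseudogene, and all stayed at or under 0.197 TPM. Within 0.5 Mb of ADAM9, 3 other genes had at least 1 TPM, with log2 changes from -0.34 to 0.51.

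ADAM23 (ENSG00000114948, plus strand of chromosome 2 of GRCh37, 207308256 to 207485851) has no working catalytic site and binds integrins and LGI proteins. It was listed at 0.905 TPM in CTR cells and 5.94 TPM in GDF1 cells, a log2 change of 1.86, a plain ratio of 6.56 and percentile 99.2 of all genes. Among the ADAMs that reached 1 TPM, the other 2 without a catalytic site, both best known from neurons, did not pass 2-fold. ADAM22 was listed at 5.06 and 3.42 TPM (log2 change -0.46) and ADAM11 at 1.92 and 2.85 TPM (log2 change 0.40). The ratio of ADAM22 to ADAM23 was 5.59 in CTR cells and 0.576 in GDF1 cells, so the order of these LGI receptors was opposite in the 2 libraries.

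ADAM15, an integrin-binding ADAM with an active protease domain, was the most abundant of all 20 genes. It was listed at 54.2 TPM in CTR cells and 85.2 TPM in GDF1 cells (log2 change 0.64), at percentiles 84.6 and 90.0 of the levels of all genes with at least 1 TPM. ADAM15 exceeded ADAM9 by 3.98 times in CTR cells and by 99.9 times in GDF1 cells. The 8 ADAMs added up to 83.8 and 104.0 TPM. Leaving out ADAM15 the sum was 29.6 and 18.8 TPM, so that gene carried the higher ADAM total of GDF1 cells.

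The main sheddases ADAM10 and ADAM17 had low transcript levels in both libraries. ADAM10, which starts Notch cleavage and sheds E-cadherin, was listed at 4.46 and 4.14 TPM, a log2 change of -0.09 that turned to 0.11 after rescaling and 0.35 with the GC trend removed. ADAM17, which releases TNF and EGF receptor ligands, was listed at 1.86 and 0.760 TPM. Its log2 change was -0.70 with the pseudocount, and its plain ratio was 2.45 times lower. Exons of ADAM17 share 1645 bases with exons of IAH1 on the opposite strand (43.3 and 42.4 TPM), and whether strand was used in counting is not given in the sources used here. ADAM19, a sheddase of neuregulins, was listed at 1.74 and 0.843 TPM (log2 change -0.57, plain ratio 2.07 times lower). ADAM9, ADAM17 and ADAM19 all stood above 1 TPM in CTR cells and below it in GDF1 cells, while ADAM10 was nearly level.

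**Figure D3:**
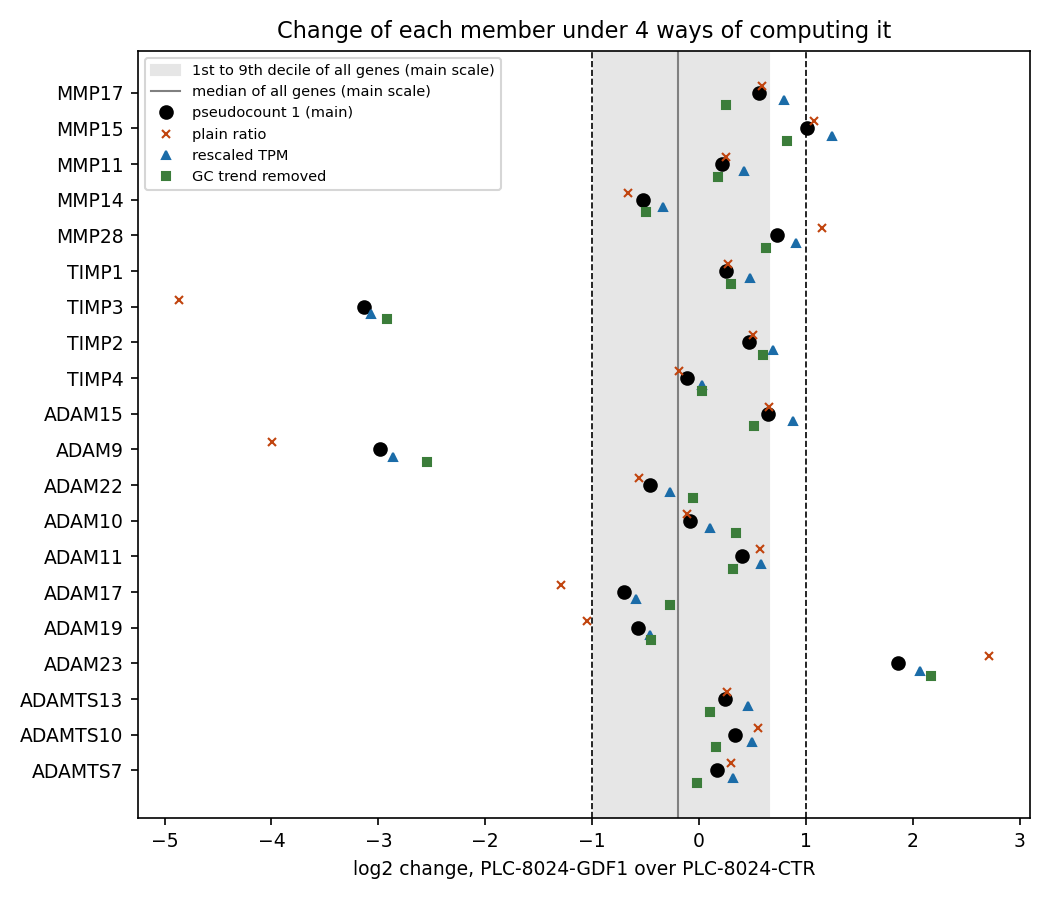
Log2 change between GDF1 and CTR cells for the 20 genes, with the main value as a black circle and the plain ratio, the rescaled value and the value after removal of the GC trend as a cross, triangle and square; dashed lines mark 2-fold and the grey band the middle of all genes on the main scale. TIMP3 and ADAM9 lie below -2.5 and ADAM23 above 1.8 under every one of these measures, while MMP15, MMP28, ADAM17 and ADAM19 cross the 2-fold line with the measure used.

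Of the 19 ADAMTS genes, 3 reached 1 TPM and none of them passed 2-fold. ADAMTS13, the protease that trims von Willebrand factor and is made in the liver, was listed at 12.0 and 14.3 TPM (log2 change 0.24). ADAMTS10, an enzyme of the fibrillin microfibrils, was listed at 1.30 and 1.90 TPM (log2 change 0.34), and ADAMTS7, which cleaves cartilage matrix proteins, at 1.18 and 1.45 TPM (log2 change 0.17). ADAMTS7 has near-identical pseudogene copies with which reads could be shared, and its value is uncertain. The aggrecanases ADAMTS4 and ADAMTS5 were at or under 0.0662 TPM, and ADAMTS1 and ADAMTS9 at or under 0.0168 TPM. Of the 47 genes under 1 TPM in all families, 29 were at 0.0001 TPM in both libraries.

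GC content was set beside the changes, because it moved with them in all genes. Across the 20 genes the GC content of the longest transcript ranged from 37.5% (ADAM9) to 68.7% (MMP17), and its Spearman correlation with the log2 change was 0.56, given as a description of genes of the same 2 libraries. Across 14640 genes with at least 1 TPM it was 0.29. With the genes put into 5 equal bins by GC content, in the lowest bin the median log2 change was -0.45, and the 4 family members there (ADAM9, ADAM10, ADAM17 and ADAM22) were all lower in GDF1 cells, ADAM10 no longer after rescaling. In the highest bin it was 0.11, and all 9 members there (MMP11, MMP15, MMP17, MMP28, ADAM11, ADAM15, ADAMTS7, ADAMTS10 and ADAMTS13) were higher. By the signs of these medians, most genes of the lowest bin were lower too, and most of the highest bin higher. The exact shares were not counted. With the trend over all genes removed, the log2 change was -2.92 for TIMP3, -2.54 for ADAM9 and 2.17 for ADAM23, and it was 0.51 for ADAM15, 0.25 for MMP17 and -0.02 for ADAMTS7. TIMP3, ADAM9 and ADAM23 thus stayed past 2-fold apart from the trend, and the values of MMP17 and ADAMTS7 became smaller.

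**Figure D4:**
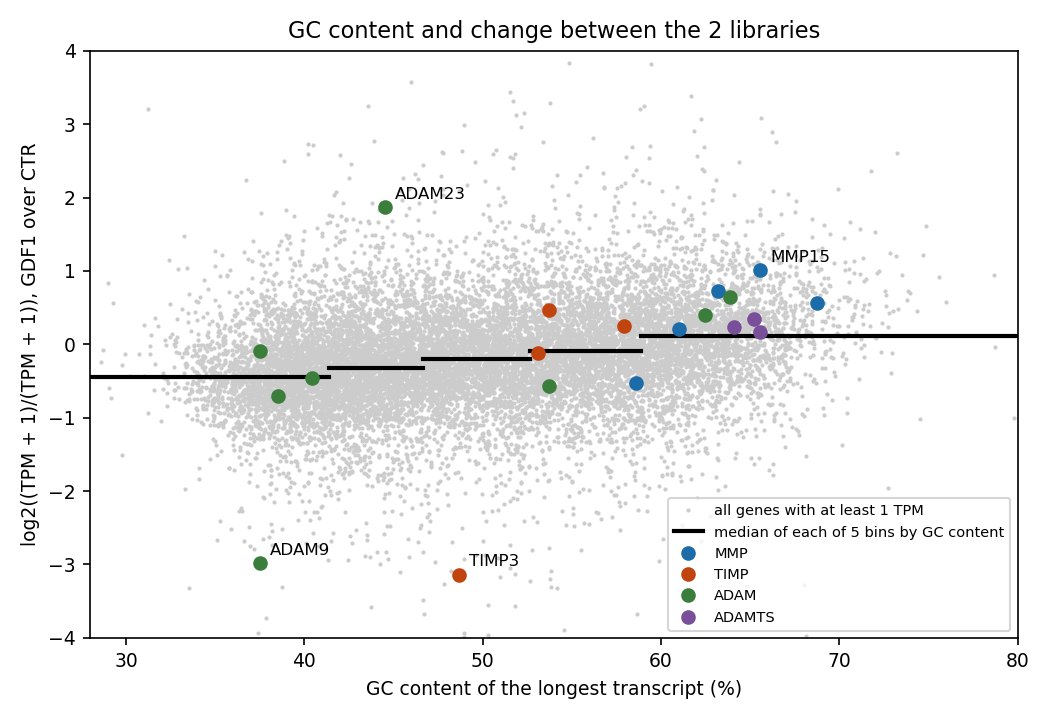
Log2 change between GDF1 and CTR cells against the GC content of the longest transcript, with all genes at or above 1 TPM in grey (those outside the axes are not drawn), the median of each of 5 equal bins by GC content as a black bar and the 20 family members coloured. The bars climb from -0.45 to 0.11, the MMP and ADAMTS genes sit at the GC-rich end, and ADAM9, TIMP3 and ADAM23 lie far from their bars.

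The regulators of these enzymes were then read from lists of activators, inhibitors, substrates and transcription factors. Of the activators of the precursors, FURIN, the main convertase of membrane-type MMPs and ADAMs, was abundant in both libraries (437.8 and 360.4 TPM, log2 change -0.28), and so was HPN, the liver protease hepsin (162.3 and 101.8 TPM, log2 change -0.67). PLAU and PLAT, the plasminogen activators themselves, were under 1 TPM.

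Among inhibitors, partners and carriers of MMPs and ADAMs, 12 of 15 genes reached 1 TPM, 1 rose and 1 fell, with a median log2 change of 0.27 against -0.20 for all genes. Over all genes 4.82% rose and 9.61% fell, and 1 gene of 12 is too few to set apart from these shares. The riser was A2M (α2-macroglobulin, ENSG00000175899), a plasma inhibitor that traps proteases of every class, at 316.1 TPM in CTR cells and 1424 TPM in GDF1 cells, a log2 change of 2.17. Its transcript exceeded the sum of the 4 TIMPs by 8.97 times in the first and by 45.7 times in the second. TSPAN33, a tetraspanin that guides ADAM10 to the cell surface, fell from 37.0 to 16.2 TPM (log2 change -1.14), which did not pass 2-fold after rescaling (-0.92), while its relative TSPAN15 was listed at 36.6 and 68.1 TPM (log2 change 0.88, and 1.11 after rescaling). BSG, an inducer of MMPs also known as EMMPRIN, was the most abundant of the list (1808 and 2233 TPM, log2 change 0.30). The ADAM17 partners RHBDF1 and RHBDF2 were within 2-fold (log2 changes -0.15 and 0.23), and so was RECK, a membrane-bound MMP inhibitor (0.32). Among 13 related metalloproteases and ADAMTS-like proteins 3 reached 1 TPM, with a median of 0.36, and 1 rose, against 4.82% of all genes. ADAMTSL4, a microfibril protein, rose from 45.2 to 104.9 TPM (log2 change 1.20), beside ADAMTSL5 (35.4 and 23.1 TPM, log2 change -0.60).

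Of 21 substrates that ADAM10 or ADAM17 can shed, 15 reached 1 TPM, 4 fell and 1 rose, and 11 were lower in GDF1 cells, with a median log2 change of -0.51. Beside this, 9443 of all 14929 genes were lower, 9.61% fell and 4.82% rose, with a median of -0.20. The share of substrates that were lower was near that of all genes on this scale only. After rescaling 11 of the 15 substrates were lower and 3 fell, while 7464 of all 14929 genes were lower and 6.52% fell. Whether the substrates differ from all genes was not tested. E-cadherin (CDH1) was listed at 10.4 TPM in CTR cells and 0.329 TPM in GDF1 cells (log2 change -3.10). The interleukin-6 receptor IL6R fell from 18.0 to 2.45 TPM (-2.47) and the EGF receptor ligand AREG from 196.4 to 62.9 TPM (-1.63). CXCL16, a membrane-bound chemokine, fell from 224.9 to 108.7 TPM (-1.04), which was within 2-fold after rescaling (-0.81) or removal of the GC trend (-0.99). CX3CL1, another, rose from 0.883 to 4.06 TPM (1.43) and reached 1 TPM in GDF1 cells only. SDC1 (133.5 and 71.2 TPM) and TNFRSF1A (99.8 and 166.2 TPM) were within 2-fold. Of 7 proteoglycans that ADAMTS enzymes cleave, 2 reached 1 TPM. BCAN rose from 0.329 to 1.83 TPM (1.09) and reached 1 TPM in GDF1 cells only, so it was counted through the library where it is higher. HSPG2, the basement membrane proteoglycan perlecan (11.6 and 22.7 TPM, 0.91), passed 2-fold after rescaling. Over all genes 4.82% rose, and 7.38% after rescaling, and 2 genes are too few to set apart from these shares. Of 12 AP-1 and ETS factors known for MMP promoters, 11 reached 1 TPM, 9 were lower in GDF1 cells (8 after rescaling) with a median of -0.58, and 2 fell, ETS2 from 28.9 to 10.3 TPM (-1.40) and ETV5 from 11.4 to 5.10 TPM (-1.02, and -0.82 after rescaling). On the deposited scale the larger part of all genes was also lower (9443 of 14929), with 9.61% that fell. After rescaling 7464 of all 14929 genes were lower and 6.52% fell, beside 8 and 1 of the 11 factors. Whether these factors differ from all genes was not tested. JUND (382.1 and 539.6 TPM, 0.50) and JUNB (500.8 and 352.2 TPM, -0.51) were the most abundant of them.

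**Figure D5:**
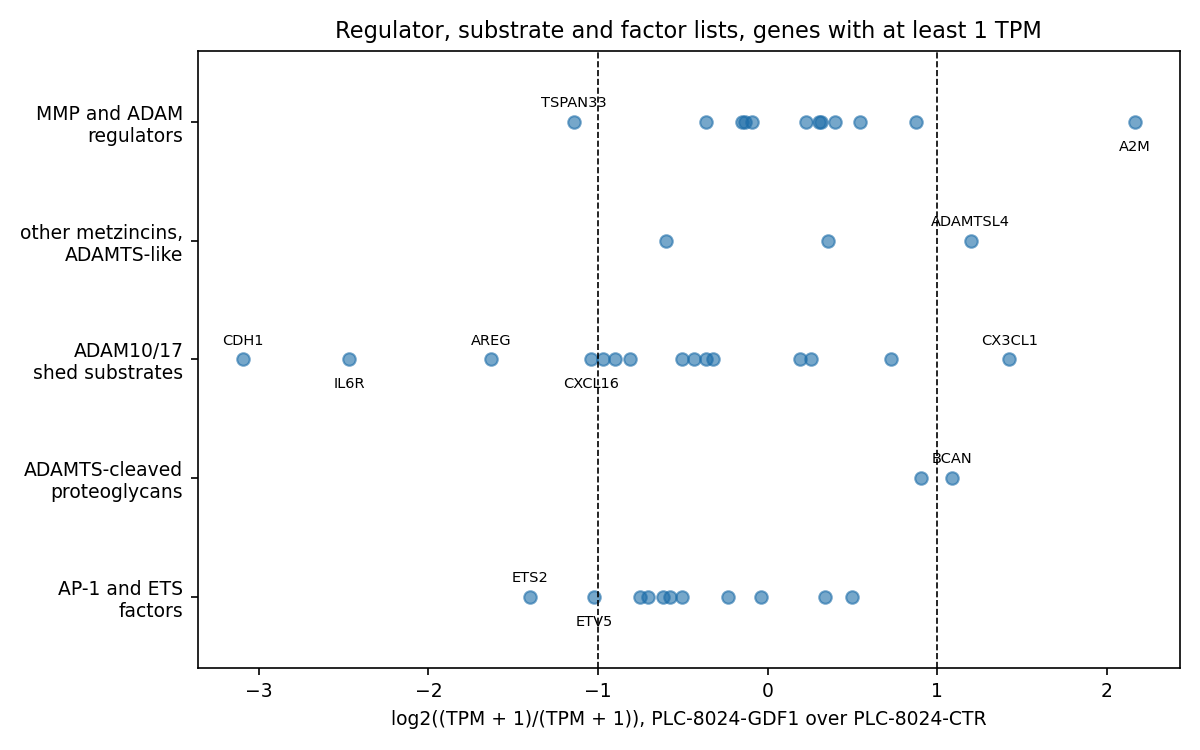
Log2 change between GDF1 and CTR cells for the genes with at least 1 TPM in 5 lists of regulators, related proteins, substrates and transcription factors, 1 point per gene, with dashed lines at 2-fold and names for the genes past them. CDH1 and IL6R lie farthest to the left (-3.10 and -2.47) and A2M farthest to the right (2.17), and most other genes lie within 2-fold.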

How the data were processed

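RNA-seq of poly(A)-selected RNA was performed on 1 library of PLC-8024-CTR cells and 1 of PLC-8024-GDF1 cells. Per the labels and methods, the authors filtered the reads with Trimmomatic 0.36, aligned them to hg19 with HISAT2 2.1.0, quantified them with StringTie 1.3.3b and deposited 1 TPM value per gene and library, scaled by gene length and library total. Gene models are named as RefSeq in the methods, but genes carry Ensembl identifiers in the tables. Both libraries sum to about the same total (999990 and 999995), so depth is lost and reads shared between overlapping or near-identical genes cannot be traced. A value of 0.0001 or less stood for 0.

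From the deposited TPM, log2 changes were computed with a pseudocount of 1 for genes that reached 1 TPM in at least 1 library, without a test. GENCODE v44 on GRCh37 gave positions, overlaps and the longest transcript of each gene for 55726 of 58174 identifiers, and RefSeq (GRCh38.p14) the promoters. The GC trend was a lowess fit with a span of 0.3. The steps were tested on simulated data. The calculations used pandas 2.3.3, numpy 2.4.6, statsmodels 0.14.6, scipy 1.17.1 and, for the plots, matplotlib 3.10.9, all under Python 3.11.15. Named were all family members at 1 TPM or more, GDF1, CERS1, and of each list the genes past 2-fold and the 2 most abundant, and any other gene was named after its value was seen. Some results are not reported here, among them the counts of the list of activators. The families and lists were chosen with earlier results of these data known. Alternatives were other pseudocounts, minimums and scalings, removal of the GC trend and leaving out overlapping genes.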

Additional observations from a re-analysis of the deposited data

How the results depend on the processing

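No paired analysis was possible because a single library was made of each kind of cell. A count was taken as moved when it changed by more than 1.5 times, and a sum, ratio or median when it changed sign, became 0 or differed by more than 1.5 times as a fold. The number of family members that rose was 2 and became 1 with the GC trend removed, where MMP15 was no longer past 2-fold. Of all genes 4.82% rose at first and 6.29% with the trend removed. The number that fell was 2 and became 4 with the plain TPM ratio, which added ADAM17 and ADAM19 because no pseudocount lowers their change. Over all genes the share that fell also grew with that ratio, from 9.61% to 16.1%. The median log2 change of the members, 0.23 at first, was 0 without a minimum TPM, where 29 of the 67 genes are at 0.0001 TPM in both libraries, and stayed between 0.17 and 0.44 under the other alternatives. The log2 ratio of the TIMP sum, -0.18, became 0.0593 with rescaled TPM, which multiplies every value of GDF1 cells by 1.18. The MMP, ADAM and ADAMTS sums and the ratio of TIMP to MMP kept their direction with a minimum of 5 TPM, without a minimum and after rescaling. Rescaling acts alike on both sums of the ratio and cannot move it. The GC trend was not removed from the sums, so whether they depend on it was not tested. Leaving out members that overlap an expressed gene on the same strand left out none of the 20. The plain ratio and a pseudocount of 0.1 each gave 3 members that rose, MMP28 being added, and with the latter 3 fell, ADAM17 being added. Of all genes, 7.88% rose with the plain ratio, and 7.82% rose and 15.5% fell with the pseudocount of 0.1. TIMP3, ADAM9 and ADAM23 stayed past 2-fold in both, after rescaling and with the GC trend removed. TPM carries no depth, which limits genes near 1 TPM most, among them ADAM17, ADAM19, ADAM23 in CTR cells and MMP28.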

Other observations

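Relatives of these families that the symbol rule left out were read as values, chosen after they were seen. MMP23B, a membrane-bound MMP with an unusual amino-terminal anchor, was listed at 3.51 TPM in CTR cells and 4.48 TPM in GDF1 cells (log2 change 0.28), and its pseudogene copy MMP23A at 1.99 and 5.20 TPM (1.05). Reads can be shared between these copies, so their separate values are uncertain. ADAMDEC1, a soluble ADAM-like protease of macrophages, was at 0.0001 TPM in both libraries.

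Antisense neighbours stood far above the family members they overlap. MMP24-AS1 was listed at 103.9 and 116.2 TPM beside 0.228 and 0.194 TPM for MMP24, with 806 bases of shared exon on opposite strands. MMP25-AS1 was listed at 10.8 and 12.2 TPM beside 0.398 and 0.930 TPM for MMP25, with 1454 bases shared. TMEM198B (20.6 and 13.9 TPM) shares 821 exonic bases with MMP19 (0.735 and 0.199 TPM), and SLC12A5-AS1 (1.02 and 3.51 TPM) shares 430 with MMP9 (0.0001 and 0.438 TPM). Without knowledge of whether strand was used in counting, the low values of these 4 MMPs cannot be told apart from reads of the opposite strand.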
